A study of Mus musculus with 12 samples.

Results

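Aquaporins are the membrane channels of water and small solutes, and 7 of their genes were followed in mouse liver: Aqp1, Aqp3, Aqp4, Aqp7, Aqp8, Aqp9 and Aqp11. They were found by gene symbol among the 24787 genes of the count tables, and all 7 were present. The list was selected on their levels across the groups in the same 12 libraries, by no stated threshold, so the values, calls and p-values of its members describe these libraries and are not independent evidence. The study tested MEC1, a compound known here by its code name, in C57Bl/6 mice on a high-fat diet. The first group (HFD+MEC1) ate the high-fat diet for 2 months and then received MEC1 at 0.5 mg/kg by daily intraperitoneal injection. The second (HFD) had the same diet and daily vehicle, with mice on that diet assigned to these 2 groups at random, and the third (ND) ate a normal diet. Each group had 4 liver RNA libraries. The sources used here do not give the length of dosing, the sex or age of the mice, whether ND mice were injected, or whether each library is 1 mouse, so p-values measure only the spread between these libraries.

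Some aquaporins carry water alone, and a subgroup, the aquaglyceroporins, also carry glycerol. In liver, glycerol arriving from fat tissue enters hepatocytes through Aqp9 and is phosphorylated by glycerol kinase, after which it can be turned into glucose or triglyceride. Aqp8 sits in hepatocytes, in the canalicular membrane and inside the cell, where it takes part in the movement of water into bile. Aqp1 is the water channel of endothelium, bile duct cells and red cells, and Aqp11 is an unorthodox member of the endoplasmic reticulum.

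The counts of the libraries totalled 39916405 to 51340317, and 14172 genes passed a filter on low counts. Of the 7 aquaporins 5 passed it, and Aqp3 and Aqp7 did not. Levels are CPM, counts divided by sequencing depth and scaled by TMM, a correction for differences in RNA composition. The summed level of 7 hepatocyte marker genes, among them Alb and Hnf4a, was 84410 to 102600 CPM in HFD+MEC1, 91130 to 105400 CPM in HFD and 93430 to 109100 CPM in ND, mostly that of Alb. Of the 7, Cps1, a urea cycle enzyme, was called lower in HFD against ND and in HFD+MEC1 against ND (1988 ± 572 CPM in HFD+MEC1, 1929 ± 540.1 CPM in HFD and 4383 ± 233 CPM in ND, edgeR adjusted p = 0.00498 for HFD and 0.00762 for HFD+MEC1). Of all tested genes, 2.95% were called lower in HFD against ND and 2.4% in HFD+MEC1 against ND. In a principal component analysis over all tested genes, HFD+MEC1 replicate 1 and HFD replicate 4 lay on the second component toward the other group, at -6.73 and 7.93, and HFD+MEC1 replicate 3 lay farthest out at 55.9. The other HFD+MEC1 libraries stood at 22.4 and 26.7, the other HFD libraries at -24.6 to -14.1 and the ND libraries at -17.1 to -6.29.

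The region around the transcription start is shown for Aqp8 and Aqp9, the most abundant members, and for Aqp11, to give the sequence each level belongs to; windows were used for 6 of the 7 members, all but Aqp4. The windows are from RefSeq (build GRCm38.p6), run from 250 bases before to 50 bases after an annotated start and are written 5′ to 3′ on the strand of the gene. Aqp9 has 2 annotated starts among these windows, and counts per gene do not separate them. In the GENCODE M21 annotation the Aqp9 gene, on the minus strand, reaches back to 71168682, outside both windows. Its outermost start there is thus not shown. Capitals mark matches to 6 motifs, searched on both strands. These were AGGTCA, the hexamer of nuclear receptors, and its direct repeat with 1 base between the copies, which contains the first. The others were TGTTTTC, the core of an insulin response element, GTTAAT, a hexamer of HNF1 sites, TATAAA, the TATA box, and TCACNCCAC, a sterol regulatory element.
Aqp8, chr7:123462044-123462343, plus strand: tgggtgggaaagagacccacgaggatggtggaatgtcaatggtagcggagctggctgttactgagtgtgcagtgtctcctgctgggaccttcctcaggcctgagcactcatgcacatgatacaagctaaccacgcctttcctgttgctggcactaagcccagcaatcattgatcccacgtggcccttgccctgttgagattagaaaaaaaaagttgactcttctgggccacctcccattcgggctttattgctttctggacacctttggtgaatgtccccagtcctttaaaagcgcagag
Aqp9, chr9:71163240-71163539, minus strand: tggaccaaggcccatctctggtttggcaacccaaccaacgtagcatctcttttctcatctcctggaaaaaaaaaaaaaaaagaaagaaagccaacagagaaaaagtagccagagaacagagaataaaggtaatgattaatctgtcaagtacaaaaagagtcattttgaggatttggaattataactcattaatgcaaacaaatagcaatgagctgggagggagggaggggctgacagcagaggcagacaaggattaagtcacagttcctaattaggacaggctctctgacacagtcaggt
Aqp9, chr9:71162584-71162883, minus strand: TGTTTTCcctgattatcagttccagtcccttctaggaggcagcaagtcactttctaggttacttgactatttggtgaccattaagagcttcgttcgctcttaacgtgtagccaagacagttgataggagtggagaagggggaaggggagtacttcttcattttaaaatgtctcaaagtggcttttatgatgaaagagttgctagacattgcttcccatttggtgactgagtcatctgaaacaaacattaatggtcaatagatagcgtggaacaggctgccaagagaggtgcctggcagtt
Aqp11, chr7:97738198-97738497, minus strand: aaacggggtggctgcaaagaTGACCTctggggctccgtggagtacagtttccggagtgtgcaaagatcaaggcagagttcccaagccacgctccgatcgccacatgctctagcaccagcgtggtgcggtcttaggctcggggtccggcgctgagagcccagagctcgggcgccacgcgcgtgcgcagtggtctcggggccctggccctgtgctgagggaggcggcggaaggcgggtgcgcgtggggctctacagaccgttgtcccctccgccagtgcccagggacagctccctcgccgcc

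The Aqp8 window and the first Aqp9 window held none of the 6 motifs. The second Aqp9 window began with TGTTTTC, 250 bases before that start, a motif found in 7.35% of all 32851 windows of this length. The Aqp11 window held the nuclear receptor hexamer on the opposite strand, 230 bases before the start, and 16.3% of all windows held it. The direct repeat was in 0.0396% of all windows, GTTAAT in 7.1%, TATAAA in 13.6% and the sterol regulatory element in 1.24%. By base composition the windows differed more: G and C made up 68.0% of the Aqp11 window, 52.0% of the Aqp8 window and 41.3% and 43.7% of the Aqp9 windows, against a median of 52.7% over all windows.

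Per transcript length, Aqp9 and Aqp8 were the most abundant aquaporins in every library. Levels between genes are compared as the authors' RPKM, a measure scaled for transcript length and for sequencing depth. RPKM were taken as deposited and do not follow exactly from the counts. In HFD replicate 4 Mip, another gene of the family, had 0 counts but 0.000531 RPKM. Over the 12 libraries Aqp9 averaged 86.8 RPKM and Aqp8 86.3 RPKM, and 3.91% and 3.92% of the tested genes had a higher mean. Aqp1 followed at 28.0 RPKM, Aqp11 at 8.39 RPKM and Aqp4 at 0.487 RPKM, a level that 79.5% of the tested genes exceeded. Ranges over the 12 libraries separated most neighbours in this order, since Aqp8 ran from 39.1 to 165 RPKM, Aqp1 from 18.9 to 33.2, Aqp11 from 6.10 to 10.7 and Aqp4 from 0.117 to 1.39. Aqp9 ran from 66.4 to 117 RPKM, inside the range of Aqp8.

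The order of the top pair depended on the group. In HFD+MEC1 livers Aqp9 stood at 88.3 to 117 RPKM and Aqp8 at 39.1 to 79.9 RPKM, without overlap. In HFD livers Aqp9 stood at 77.2 to 105 RPKM and Aqp8 at 72.6 to 165 RPKM, and in ND livers at 66.4 to 83.3 RPKM and 66.9 to 80.2 RPKM, so that the genes overlapped in both groups. The ratio of Aqp8 to Aqp9 RPKM within a library, which no scaling of libraries can alter, was 0.684, 0.516, 0.435 and 0.609 in HFD+MEC1 replicates 1 to 4. It was 1.35, 0.836, 1.58 and 1.87 in HFD replicates 1 to 4, and 1.16, 1.13, 0.905 and 1.01 in ND replicates 1 to 4. All 4 HFD+MEC1 livers lay below the lowest liver of each other group, HFD replicate 2 was the lowest of HFD, and HFD and ND overlapped. The mean ratio was 0.561 ± 0.109 in HFD+MEC1, 1.41 ± 0.438 in HFD and 1.05 ± 0.118 in ND (SD, n = 4 each).

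**Figure D1:**
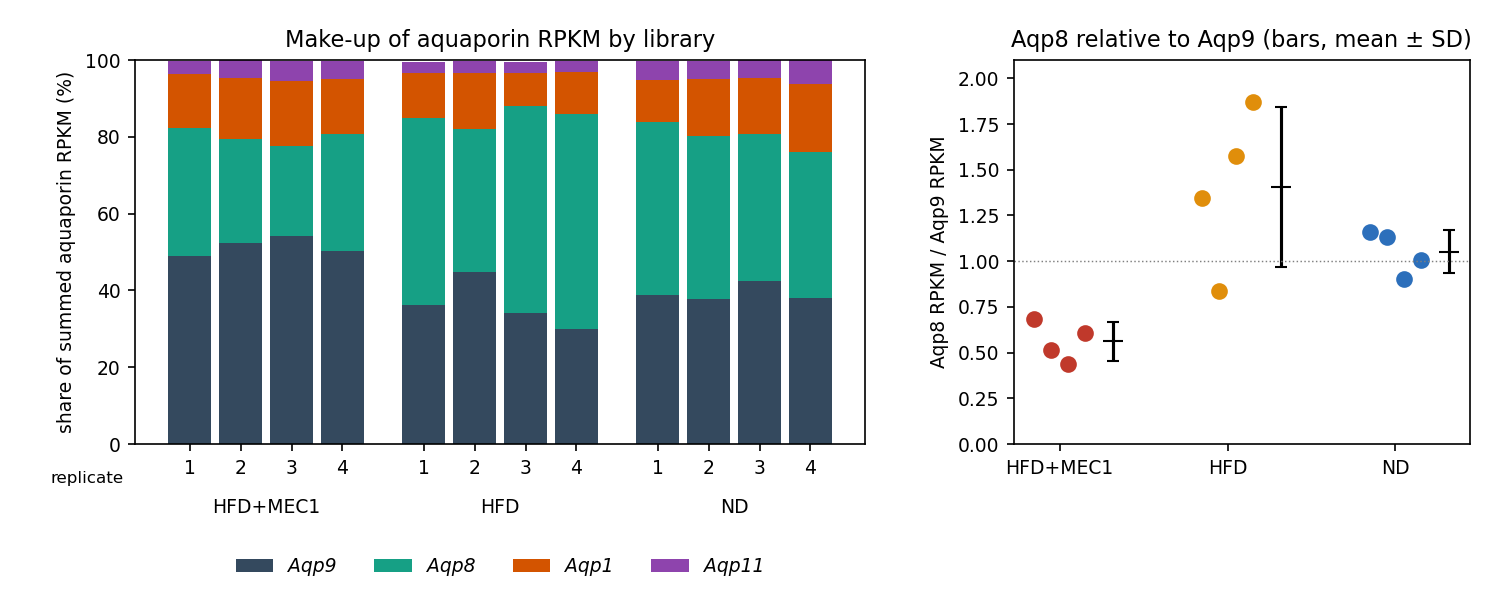
Left, share of the summed aquaporin RPKM (%) taken by each gene in each library, by group and replicate; Aqp4 and the remaining family members hold at most 0.473% and 0.0599% and are not drawn. Right, ratio of Aqp8 to Aqp9 RPKM, with points for libraries and bars for mean ± SD (n = 4); the 4 HFD+MEC1 points lie at 0.435 to 0.684, below all HFD and ND points.

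The family as a whole summed to 166 to 239 RPKM in HFD+MEC1, 194 to 306 RPKM in HFD and 172 to 196 RPKM in ND. Aqp9 made up 48.9 to 54.1% of that sum in HFD+MEC1, 29.9 to 44.7% in HFD and 37.7 to 42.4% in ND. Aqp8 made up 23.5 to 33.5% in HFD+MEC1, 37.4 to 56.0% in HFD and 38.2 to 45.1% in ND. The share of Aqp9 in HFD+MEC1 was thus above that of every other library, and the share of Aqp8 below.

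The randomised comparison, HFD+MEC1 against HFD, sets the compound against its vehicle. Aqp8 and Aqp4 had the widest differences of the family, both lower in HFD+MEC1, while Aqp1, Aqp9 and Aqp11 differed by 0.20 or less on the log2 scale. In this comparison 0 of the 5 tested aquaporins passed an adjusted p of 0.05 with edgeR's quasi-likelihood test, where 0.0282% of all genes passed (0.00706% higher and 0.0212% lower), and 0 passed with limma-voom. At an unadjusted p under 0.05 there were 2, Aqp4 and Aqp8, with 2101 of all tested genes. The same 2 passed with DESeq2, as did 389 of all tested genes. The groups did not overlap in CPM for these 2 genes, as for 7.11% of all tested genes.

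HFD and ND livers differed in diet, and since HFD mice had vehicle injections and it is not known whether ND mice did, diet and injection cannot be told apart here. Aqp4, the least abundant of the 5 tested members, rose to 4.76 times its ND level, and Aqp11 fell to 0.748 of its ND level. Of the 5 tested aquaporins 2 passed the test, 1 higher and 1 lower, and 3 did not, where 6.3% of all genes passed, 3.35% higher and 2.95% lower. The groups did not overlap in CPM for Aqp4 and Aqp11, as for 14.3% of all tested genes. Fewer cells of a type and less RNA per cell cannot be told apart in RNA from whole liver. Between HFD+MEC1 and ND 0 of 5 passed with edgeR and 0 with limma-voom, where 4.54% of all genes passed, 2.15% higher and 2.4% lower. There Aqp9 and Aqp8 had an unadjusted p under 0.05, as did 2704 of all tested genes. Aqp9 passed with DESeq2, as did 1155 of all tested genes. In CPM Aqp9 and Aqp11 did not overlap, as for 11% of all tested genes. Each group enters 2 of the 3 comparisons, and those that share a group are not independent.

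**Figure D2:**
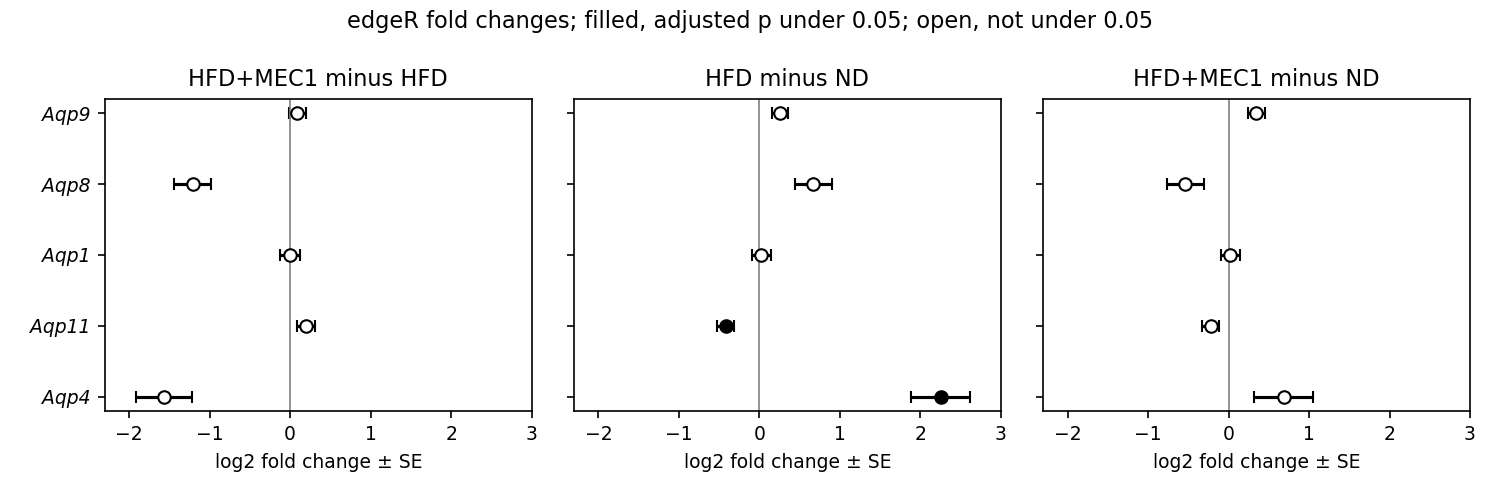
edgeR log2 fold changes with their SE (x axis) of the 5 tested aquaporins (y axis) in each comparison; filled points have an adjusted p under 0.05. Aqp4 at 2.25 and Aqp11 at -0.42 in HFD minus ND are the filled points, and Aqp4 and Aqp8 lie left of 0 in HFD+MEC1 minus HFD and right of 0 in HFD minus ND.

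Aqp9, the aquaglyceroporin of the hepatocyte (chromosome 9, 71110659 to 71168682, minus strand), varied little, over a range of 0.65 on the log2 scale in the 12 libraries. Its level was 419, 350, 357 and 375 CPM in HFD+MEC1 replicates 1 to 4, 381, 345, 378 and 307 CPM in HFD replicates 1 to 4, and 279, 305, 329 and 268 CPM in ND replicates 1 to 4. All HFD+MEC1 livers lay above all ND livers, while HFD overlapped with HFD+MEC1, and with ND through its replicate 4. Against ND, the log2 fold change was 0.35 ± 0.10 in HFD+MEC1 (SE, edgeR adjusted p = 0.0706) and 0.26 ± 0.10 in HFD (adjusted p = 0.168). Against HFD it was 0.09 ± 0.10 in HFD+MEC1 (adjusted p = 0.738). With DESeq2 the difference of HFD+MEC1 from ND passed (adjusted p = 0.0162), and over all alternatives its adjusted p ran from 0.0162 to 0.194.

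The other aquaglyceroporins among the members, Aqp3 of epithelia and Aqp7 of adipocytes, were at the limit of detection. Aqp3 (chromosome 4, 41092722 to 41098183) had 0 counts in all 4 HFD+MEC1 libraries, 2 counts in HFD replicate 4 with 0 in the other HFD libraries, and 4 and 8 counts in ND replicates 1 and 4 with 0 in the other ND libraries. Aqp7 (chromosome 4, 41033074 to 41048139) had 4, 0, 2 and 6 counts in HFD+MEC1 replicates 1 to 4, 4 counts in HFD replicate 3 with 0 in the other HFD libraries, and 1 count in ND replicate 3 with 0 in the other ND libraries. A count of 0 allows up to 3 counts, or 0.0590 to 0.0770 CPM in these libraries, for counting error only. Both genes failed the filter, and no fold change is given. Of 10 adipocyte markers, Adipoq, Lep, Plin1 and Slc36a2 had 0 counts in all HFD+MEC1 and HFD libraries, and in ND too except for 4 counts of Adipoq in each of replicates 1 and 3. Retn had 2 counts in each of HFD+MEC1 replicate 1 and HFD replicates 3 and 4 and 0 elsewhere. The other 5 markers were tested, with 0 called by edgeR in HFD+MEC1 against HFD and against ND. In HFD+MEC1 against HFD 3 of the 5 had an unadjusted edgeR p under 0.05, with 2101 of all tested genes. With DESeq2 1 passed, with 389 of all tested genes. In HFD against ND 2 of the 5 rose (median log2 fold change 0.999), where 3.35% of all genes were called higher. These were Fabp4, a fatty acid binding protein (12.6 ± 1.93 CPM in HFD and 6.33 ± 0.783 CPM in ND, edgeR adjusted p = 0.000729), and Cidec, a lipid droplet protein (18.3 ± 13.95 CPM in HFD and 1.123 ± 0.635 CPM in ND, adjusted p = 0.0312). Cfd averaged 7.47 ± 5.14 CPM in HFD and 0.607 ± 0.574 CPM in ND (adjusted p = 0.14). Of the 5 markers 4 had a positive log2 fold change there. Adrb3 went the other way, at 2.01 ± 0.822 CPM in HFD and 3.07 ± 0.929 CPM in ND (edgeR adjusted p = 0.333). The summed level of the 10 markers was 1367 to 2353 CPM in HFD+MEC1, 1529 to 1779 CPM in HFD and 619.9 to 2211 CPM in ND, mostly that of Pck1, which hepatocytes also express. The part of adipocytes in the few Aqp7 counts was not tested. The genes Aqp7 and Aqp3 are neighbours in the same orientation, 44582 bases apart.

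Aqp8, the water channel that hepatocytes hold at the canaliculus and inside the cell (chromosome 7, 123462291 to 123468004, plus strand), spread widely on the high-fat diet. Its level was 137.0, 86.2, 74.2 and 109 CPM in HFD+MEC1 replicates 1 to 4, 245, 137.7, 285 and 274 CPM in HFD replicates 1 to 4, and 155, 165, 142 and 129 CPM in ND replicates 1 to 4. HFD replicate 2 stood below the other HFD livers and inside the ND range. It also lay just above HFD+MEC1 replicate 1, so that HFD+MEC1 and HFD were kept apart in CPM by that narrow gap, and in RPKM the same libraries overlapped at 79.9 for HFD+MEC1 replicate 1 and 72.6 for HFD replicate 2. The means were 102 ± 27.7 CPM in HFD+MEC1, 236 ± 67.4 CPM in HFD and 148 ± 15.7 CPM in ND (SD, n = 4 each).

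For Aqp8 the log2 fold change of HFD+MEC1 against HFD was -1.21 ± 0.23 (edgeR adjusted p = 0.0766), a change that 2.39% of the tested genes exceeded in size. Without HFD+MEC1 replicate 1 it was -1.39 (adjusted p = 0.0121), without HFD replicate 2 it was -1.40 (adjusted p = 0.00659), and over all alternatives the adjusted p ran from 2.49e-05 with DESeq2 to 0.228. Without the outlying HFD+MEC1 replicate 3 it was -1.08 (adjusted p = 0.162), and without HFD replicate 4 it was -1.13 (adjusted p = 0.0705). HFD against ND gave 0.67 ± 0.23 (adjusted p = 0.112). Without HFD replicate 2 that difference was 0.86 and passed (adjusted p = 0.0132), as it did with DESeq2 (adjusted p = 0.0196), and its adjusted p reached 0.276 among the alternatives. HFD+MEC1 against ND gave -0.54 ± 0.23 (adjusted p = 0.223), with HFD+MEC1 replicate 1 inside the ND range and the other 3 HFD+MEC1 livers below it. The estimated variation between replicates, as a coefficient of variation, was 22.9% for Aqp8 where the trend for genes of its abundance was 15.3%. For Aqp1 it was 13.8%, with a trend of 14.4%.

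Aqp4, best known as the water channel of astrocyte end-feet in brain (chromosome 18), was rare in liver but had the widest range of the tested members. Its level was 2.59, 1.47, 2.00 and 3.44 CPM in HFD+MEC1 replicates 1 to 4, 9.59, 4.55, 9.69 and 4.32 CPM in HFD replicates 1 to 4, and 1.45, 2.36, 1.21 and 0.910 CPM in ND replicates 1 to 4. Counts behind these levels were 75 to 150 in HFD+MEC1, 196 to 489 in HFD and 44 to 100 in ND. All HFD livers lay above all HFD+MEC1 and ND livers, HFD replicates 1 and 3 lay well above replicates 2 and 4, and HFD+MEC1 overlapped with ND. Aqp4 rose in HFD against ND by 2.25 ± 0.36 on the log2 scale (edgeR adjusted p = 0.00273), and 0.706% of the tested genes changed more. The call was kept under all 22 alternatives, with an adjusted p from 1.68e-08 to 0.0136 and a change from 0.70, on the log2(RPKM + 1) scale, to 2.56. HFD+MEC1 stood at -1.57 ± 0.35 against HFD (adjusted p = 0.0992) and at 0.68 ± 0.36 against ND (adjusted p = 0.332). The difference from HFD passed without HFD+MEC1 replicate 1 (-1.61, adjusted p = 0.0474), without HFD replicate 4 (-1.74, adjusted p = 0.0443) and with DESeq2 (adjusted p = 0.0014), was -1.49 without HFD+MEC1 replicate 3 (adjusted p = 0.217), and had an adjusted p of up to 0.257. The replicate coefficient of variation of Aqp4 was 33.9%, with a trend of 23.5% at its abundance.

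Aqp1, the water channel of endothelium, bile ducts and red cells (chromosome 6, 55336432 to 55348555, plus strand), had overlapping levels in all 3 groups. It stood at 106, 93.1, 98.4 and 96.1 CPM in HFD+MEC1 replicates 1 to 4, 109, 98.6, 85.3 and 100.2 CPM in HFD replicates 1 to 4, and 69.9, 106, 100.4 and 110.5 CPM in ND replicates 1 to 4. ND replicate 1 was the lowest library. The log2 fold changes were -0.001 ± 0.12 for HFD+MEC1 against HFD, 0.03 ± 0.12 for HFD against ND and 0.02 ± 0.12 for HFD+MEC1 against ND, with edgeR adjusted p of 0.998, 0.936 and 0.948. Each of them changed sign when single libraries were left out. Without ND replicate 1 the others were -0.11 and -0.10.

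Markers of the cells that carry Aqp1 were read in the same libraries. The summed level of 13 endothelial markers was 363 to 419 CPM in HFD+MEC1, 324 to 400.5 CPM in HFD and 236 to 363 CPM in ND, and the 236 CPM was that of ND replicate 1, the library lowest in Aqp1, with 330.4 to 363 CPM in the other ND libraries. Cholangiocyte markers, 12 genes, summed to 58.0 to 111 CPM in HFD+MEC1, 59.5 to 77.4 CPM in HFD and 84.1 to 112 CPM in ND, and among them Sctr had 0 counts in HFD. Epcam, an epithelial adhesion gene, was the 1 of 9 tested cholangiocyte markers called lower in HFD+MEC1 against ND, where 2.4% of all genes were. It stood at 0.677 ± 0.169 CPM in HFD+MEC1 and 2.03 ± 0.804 CPM in ND (edgeR adjusted p = 0.0148). Of the 9 markers 1 had a positive log2 fold change there, with a median of -0.852, against 0.003 for all genes. The median was also negative in HFD against ND (-0.441, 2 positive) and in HFD+MEC1 against HFD (-0.491, 3 positive), with 0 called. Some of the 9 were rare, such as Cftr at 0.108 ± 0.107 CPM in HFD+MEC1. With 1 gene called, the count is no result about this list. Erythroid markers, 8 genes, summed to 1831 to 6581 CPM in HFD+MEC1, 2329 to 4771 CPM in HFD and 2072 to 5687 CPM in ND. ND replicate 1 stood at 2805 CPM of these and was not the lowest. Of 13 tested endothelial markers 1 was called in HFD+MEC1 against ND, a share near the 4.54% of all genes, the sinusoidal lectin gene Clec4g (68.0 ± 9.48 CPM in HFD+MEC1 and 48.4 ± 8.57 CPM in ND, edgeR adjusted p = 0.0306). The part of these cells in the level of Aqp1 was not tested.

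Aqp11 (chromosome 7, 97724006 to 97738289, minus strand) is thought to act in the endoplasmic reticulum and was lower in HFD than in ND. Its level was 12.9, 13.3, 14.9 and 14.6 CPM in HFD+MEC1 replicates 1 to 4, 12.6, 10.3, 13.2 and 12.5 CPM in HFD replicates 1 to 4, and 15.06, 16.4, 15.03 and 18.4 CPM in ND replicates 1 to 4. The ND livers lay above all others in CPM, ND replicate 4 highest and HFD replicate 2 lowest, and HFD+MEC1 overlapped with HFD. In RPKM the groups overlapped, at 7.90 to 8.85 in HFD+MEC1, 6.10 to 8.63 in HFD and 8.51 to 10.7 in ND. Aqp11 fell by 0.42 ± 0.11 on the log2 scale in HFD against ND (edgeR adjusted p = 0.0299), and HFD+MEC1 stood at -0.22 ± 0.11 against ND (adjusted p = 0.28) and 0.20 ± 0.11 against HFD (adjusted p = 0.42).

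The Aqp11 call rested on the scaling and on single libraries. Scaling by library totals instead of TMM gave a difference of HFD from ND of -0.29 (adjusted p = 0.143) and shifted the median over all genes by 0.12, and with RPKM it was -0.32 (adjusted p = 0.0935) or -0.29 (adjusted p = 0.0948). It also failed to pass without HFD replicate 1 (-0.44, adjusted p = 0.0547), HFD replicate 2 (-0.35, adjusted p = 0.0898), ND replicate 2 (-0.42, adjusted p = 0.0573) or ND replicate 4 (-0.36, adjusted p = 0.107). Over all alternatives its sign was negative and the adjusted p ran from 0.00805 to 0.143.

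**Figure D3:**
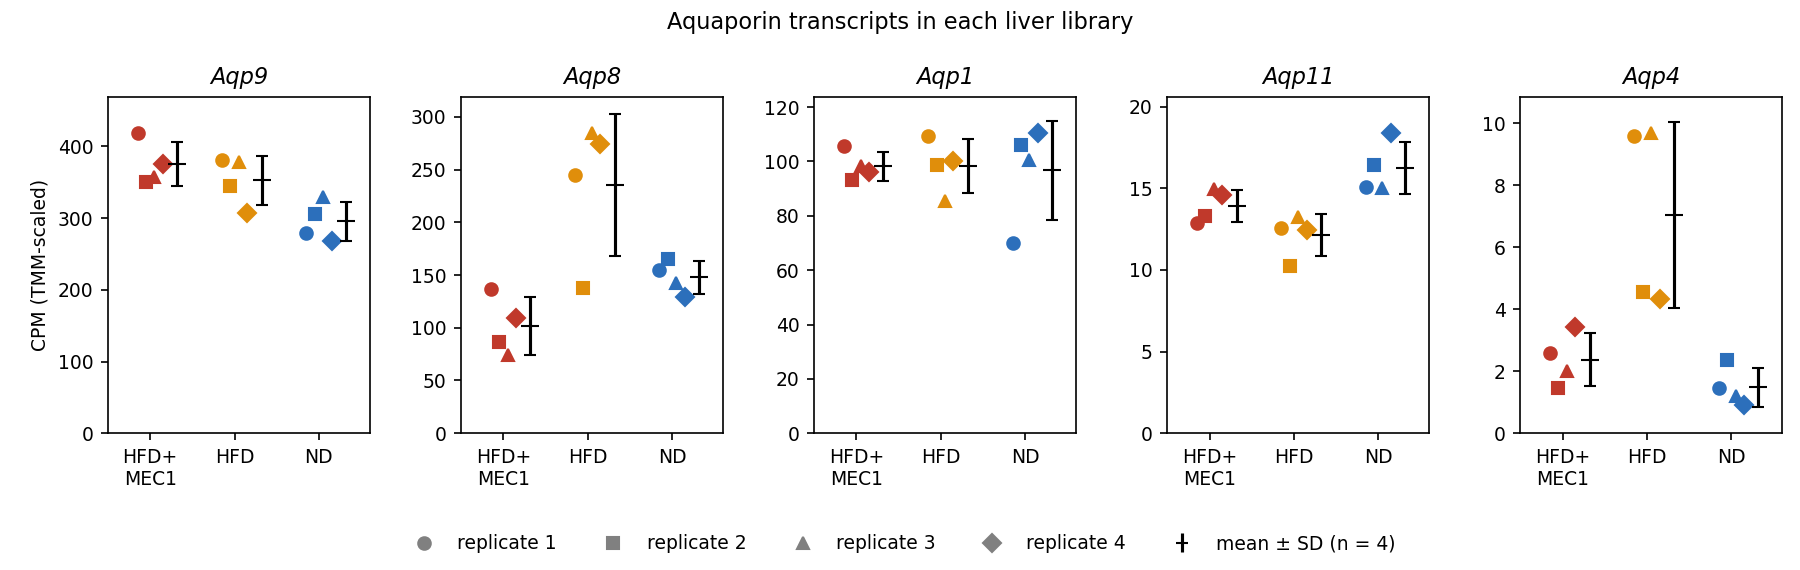
CPM (linear y axis from 0) of the 5 tested aquaporins in each library, by group, with marker shape for the replicate and bars for mean ± SD (n = 4 each). Aqp4 in HFD lies at 4.32 to 9.69 CPM, above every other library; in Aqp8 the HFD replicate 2 point at 137.7 CPM lies below the other HFD points; Aqp1 overlaps across groups.

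The remaining genes of the family in the tables, 5 in number, were nearly silent in these libraries. Aqp6, of kidney, and Aqp12, of pancreas, had 0 counts in all 12 libraries. Aqp2, of the kidney collecting duct, had 4 counts in ND replicate 1 and 0 elsewhere. Aqp5, of salivary gland and lung, had 4 counts in HFD replicate 2 and 2 in each of ND replicates 1 and 3. Mip, of the lens, had 1 count in each of 2 libraries.

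The genes with profiles most like Aqp4, Aqp8 and Aqp11 were sought by the root-mean-square difference of log2 CPM over the 12 libraries, each gene centred on its own mean. These genes were chosen for their likeness over the same libraries, so the direction of their differences between groups follows from the choice, and their values are a description with no test. For Aqp4, whose own values deviated by 1.04 from their mean on this measure, the closest were Lgals1, a galectin gene, at 0.33, Cd36, the fatty acid transporter, at 0.39, and the solute carrier gene Slc17a4 at 0.41. Lgals1 stood at 24.5, 10.1, 11.3 and 18.8 CPM in HFD+MEC1, 48.2, 45.6, 84.1 and 29.9 CPM in HFD and 12.3, 15.2, 9.47 and 9.13 CPM in ND, replicates 1 to 4. The log2 fold changes of Lgals1, Cd36 and Slc17a4 were -1.68, -1.52 and -1.09 in HFD+MEC1 against HFD and 2.17, 2.39 and 1.67 in HFD against ND.

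For Aqp8, whose own deviation was 0.58, the closest were Hyi, a hydroxypyruvate isomerase gene, at 0.26, Fam126a at 0.27 and Gpam, the first enzyme of triglyceride synthesis from glycerol phosphate, at 0.29. Gpam stood at 305, 264, 205 and 233 CPM in HFD+MEC1, 529, 308, 454 and 540 CPM in HFD and 479, 388.5, 377 and 415 CPM in ND, replicates 1 to 4. Its HFD and ND livers overlapped, and its log2 fold change in HFD against ND was 0.14, where that of Aqp8 was 0.67. The changes of Hyi, Fam126a and Gpam in HFD+MEC1 against HFD were -0.85, -0.89 and -0.86, and those of Hyi and Fam126a in HFD against ND were 0.57 and 0.71. For Aqp11, with its own deviation of 0.21, Smim1, Usb1 and Supt7l were closest at 0.09, 0.09 and 0.11.

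**Figure D4:**
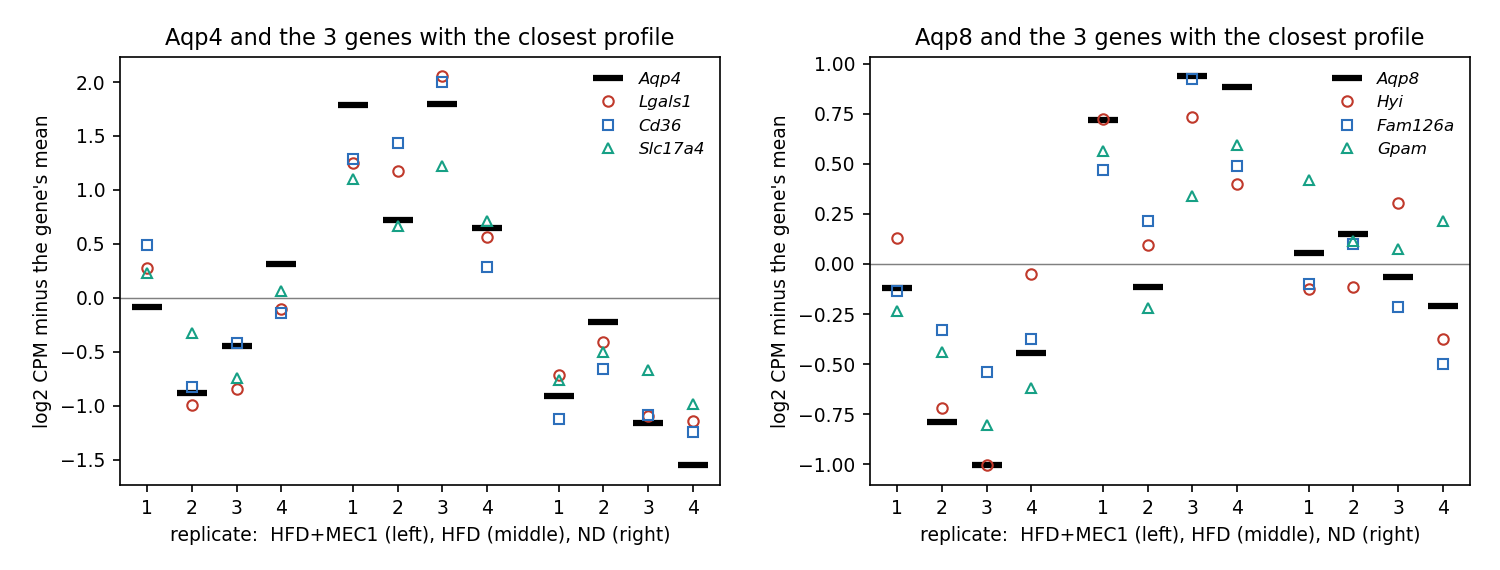
Centred log2 CPM (y axis) of Aqp4 (left) and Aqp8 (right), black bars, and of the 3 genes nearest to each in profile, open symbols, in the 12 libraries (x axis, replicates by group). The genes were chosen for this likeness; the bars of Aqp4 are above 0 in all HFD libraries and below 0 in all ND libraries.

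Genes that act beside the aquaporins were read from 5 lists. Their counts stand beside the shares of all genes called, which were 3.35% higher and 2.95% lower in HFD against ND and 2.15% higher and 2.4% lower in HFD+MEC1 against ND. Of 14 genes that release or use glycerol, 4 rose and 2 fell in HFD against ND and 8 did not pass, with a median log2 fold change of 0.34, where the median of all genes was -0.003. Gpd2, the mitochondrial glycerol phosphate dehydrogenase, averaged 56.3 ± 4.86 CPM in HFD and 27.3 ± 4.00 CPM in ND (edgeR adjusted p = 0.000719), and Mgll, which frees glycerol from monoglycerides, 265 ± 39.7 CPM in HFD and 126 ± 14.3 CPM in ND (adjusted p = 0.00165). Gk, the glycerol kinase gene that acts on what Aqp9 admits, averaged 163 ± 17.04 CPM in HFD and 96.5 ± 9.24 CPM in ND (adjusted p = 0.00621). Lipe and Abhd5, of lipolysis, fell, and Lipe averaged 7.40 ± 0.453 CPM in HFD and 11.5 ± 0.993 CPM in ND (adjusted p = 0.0223). Of the 14 genes, 2 rose and 2 fell in HFD+MEC1 against ND, with a median of 0.03, and G6pc, of glucose release, was among those that fell (185 ± 51.5 CPM in HFD+MEC1 and 425 ± 176 CPM in ND, adjusted p = 0.0356).

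Of 11 genes of canalicular bile formation, the setting of Aqp8, 3 rose and 2 fell in HFD against ND (median 0.13). Abcb4, the phospholipid exporter, averaged 348 ± 46.3 CPM in HFD and 168 ± 16.4 CPM in ND (edgeR adjusted p = 0.000236), Abcg2 148 ± 17.7 CPM in HFD and 99.8 ± 15.6 CPM in ND (adjusted p = 0.00677), and Slc9a3r1, a scaffold of canalicular proteins, 141 ± 10.8 CPM in HFD and 187 ± 6.55 CPM in ND (adjusted p = 0.0264). Abcb4 was also the 1 of 11 that rose in HFD+MEC1 against ND (302 ± 46.6 CPM in HFD+MEC1 and 168 ± 16.4 CPM in ND, adjusted p = 0.00128). Of 15 genes of osmotic response and cell volume, 2 fell in HFD against ND, the taurine transporter gene Slc6a6 (71.6 ± 10.2 CPM in HFD and 107 ± 8.52 CPM in ND, adjusted p = 0.00674) and the betaine transporter gene Slc6a12 (48.3 ± 6.04 CPM in HFD and 65.6 ± 7.45 CPM in ND, adjusted p = 0.0182), with a median of 0.03. Slc6a6 was the 1 of 15 that fell in HFD+MEC1 against ND (63.5 ± 8.26 CPM in HFD+MEC1 and 107 ± 8.52 CPM in ND, adjusted p = 0.00138). With 1 gene each in HFD+MEC1 against ND, the counts for bile formation and for osmotic response are no result about these lists.

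Of 11 genes of insulin and fasting control, 1 rose in HFD against ND, Ppara, the nuclear receptor of fatty acids (223 ± 13.1 CPM in HFD and 137 ± 16.2 CPM in ND, edgeR adjusted p = 0.00187, with a list median of 0.06), and 1 in HFD+MEC1 against ND, again Ppara (adjusted p = 0.00067). With 1 gene each, these counts are near the shares of all genes called and are no result about the list. Hydrogen peroxide is a solute that Aqp8 and Aqp11 are also known to pass. Of 15 genes of its handling, 0 were called in HFD against ND by edgeR or limma-voom (median 0.07). There 2 had an unadjusted edgeR p under 0.05, with 2928 of all tested genes. With DESeq2 1 passed, with 1391 of all tested genes. In HFD+MEC1 against HFD 0 of the 66 tested genes of the 5 lists passed with edgeR or limma-voom. There 18 had an unadjusted edgeR p under 0.05 and 5 passed with DESeq2. Of all 14172 tested genes, 2101 and 389 did. The medians of the lists in that comparison were -0.20 for glycerol, 0.09 for insulin and fasting, -0.11 for bile formation, 0.03 for osmotic response and -0.14 for hydrogen peroxide handling, against 0.01 for all genes.

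Markers of the position of hepatocytes in the lobule were read as well. Of 12 periportal markers 7 fell in HFD against ND, where 2.95% of all genes were lower, and 7 in HFD+MEC1 against ND, where 2.4% were (median log2 fold changes -0.70 and -0.79), with summed levels of 4148 to 5864 CPM in HFD+MEC1, 4633 to 5534 CPM in HFD and 5676 to 7305 CPM in ND. Of 12 pericentral markers 1 fell in each of these comparisons, Cyp1a2, with medians of 0.03 and 0.06, and the other 11 did not pass. Hal, the periportal histidine lyase gene, averaged 183 ± 33.1 CPM in HFD and 382 ± 25.1 CPM in ND (edgeR adjusted p = 0.000231). The part of the periportal markers in the levels of the aquaporins was not tested.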

How the data were processed

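Liver RNA was sequenced as 12 libraries. Titles gave each library its group and number. Per the file headers, the authors deposited a table of read counts by gene symbol for every library, in whole numbers, and RPKM values in a joint table. STAR 2.7.10a and build mm10 are named in the submitters' processing notes; the counting tool, its annotation and its use of strand are not given in the sources used here. The 7 aquaporins share no exonic base with another gene in GENCODE M21 (GRCm38, the assembly that mm10 names), from which gene positions (1-based) were taken; 24255 of 24787 symbols matched. Between 70.1 and 74.7% of the deposited counts of 1 to 20 were even, so counts may not be independent fragments, and the floor of 3 counts covers counting error only. The RPKM table held 12 further columns that match no sample; these were not used.

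Counts were filtered with filterByExpr, scaled with TMM and fitted in 1 quasi-likelihood model of 3 groups with edgeR 4.0.16 (R 4.3.3), with Benjamini-Hochberg adjustment over 14172 genes; all tests were two-sided and 0.05 was the threshold. Logarithms of single libraries used a prior count of 2. Alternatives were DESeq2 1.42.0 (test and size factors), limma-voom (limma 3.58.1), library totals, other filters, 2-group fits, the replicate number as a block, each library left out in turn, and limma on log2(RPKM + 0.1 or 1). Named genes were all members, the other family genes, the 3 nearest profiles of called members and of the 2 members with the widest range, and at most 4 called genes per list. The members and lists were chosen with earlier results of these data known. Same-numbered libraries did not deviate together (correlations -0.09 to 0.13), so numbers do not pair them. Chi-square values per gene between replicates of a group were 36.2 or more, so no library repeats another of its own group. Pairs across groups were not compared in this way.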

Additional observations from a re-analysis of the deposited data

How the results depend on the processing

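Fold changes of the 5 tested aquaporins were recomputed under 22 alternatives, 330 values in all. Of these 297 kept direction and side of the threshold, 7 lost a call (all Aqp11, HFD against ND), 9 gained one and 17 changed sign, all of Aqp1. The Aqp1 change of HFD+MEC1 against HFD was 0.005 with at least 10 counts in 4 libraries, 0.002 with limma-voom and 0.001 with the replicate block; leaving out single libraries gave -0.063 to 0.054, and -0.107 to 0.092 for HFD against ND and -0.104 to 0.094 for HFD+MEC1 against ND.

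The number of genes called in HFD+MEC1 against HFD was 4 as reported, 0 with library totals, with at least 10 counts in 4 libraries and with RPKM at a pseudocount of 0.1, 1 at a pseudocount of 1, 2 with limma-voom and with only the groups compared, 17 with no filter, 21 with the replicate block and 389 with DESeq2. Without single libraries it ran from 0 to 460, the highest without HFD+MEC1 replicate 1, with 72 without HFD replicate 4. Aquaporins called there were 2 with DESeq2 and 0 to 2 without single libraries. In HFD against ND the 893 genes became 1391 with DESeq2 and 423 to 1109 without single libraries (lowest without HFD replicate 3; 473 without ND replicate 4, 562 without ND replicate 1), and the 2 aquaporins became 3 with DESeq2, which added Aqp8, 1 with library totals and with both RPKM settings, and 1 to 2 without single libraries. In HFD+MEC1 against ND the 644 genes became 1155 with DESeq2, with 1 aquaporin, and 334 to 678 without single libraries, with 0 aquaporins (334 without ND replicate 4, 390 without ND replicate 1, 419 without ND replicate 2). With library totals 79.5% of the genes called in HFD against ND were higher and with RPKM 72.6% or 72.0%, against 53.2% as reported; in HFD+MEC1 against ND the shares were 66.8%, 64.2% and 62.7%, against 47.2%. The replicate block changed no aquaporin call, with 1 of 12 same-number correlations above 0.1 and 4 of 12 libraries closest to one of their own number. The causes of these differences were not tested. Aqp4 rests on 44 to 489 counts per library, and Aqp3 and Aqp7 were too rare to compare.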
